A study of Mus musculus with 66 samples.

Results

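Mitochondrial biogenesis regulators are genes whose products set how much mitochondrial DNA, RNA and protein a cell makes, and 8 of them were followed after activation of the transcription factor Myc. Ppargc1b, Esrra, Nrf1 and Gabpa act in the nucleus, and Polrmt, Tfb2m, Tfam and Tfb1m act inside mitochondria. They were picked by symbol from the 11513 genes that each deposited table lists. All 8 were listed in the exon and intron tables of both labelled and total RNA, and all 8 passed the filter on low values, which asked for 10 or more in 3 or more libraries of a table.

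The cells were 3T9 fibroblasts derived from mouse embryos. All groups had the genotype c-myc flox/flox and a MycER construct, introduced by retroviral infection with a pBabe bleomycin vector. MycER is a fusion of Myc with the ligand-binding domain of a steroid receptor, and is active when 4-hydroxytamoxifen (OHT) is bound. Cells were given 400 nM OHT for 10, 20 or 30 min or for 1, 1.5, 2, 4, 8, 12 or 16 h, and the 0 min cells have no OHT treatment listed. At each of these 11 times there were 3 libraries of RNA labelled with 300 µM 4-thiouridine (4sU) over 10 min, which marks RNA made in that window, and 3 libraries of total RNA. A course without OHT was not analysed here, so OHT and elapsed time cannot be told apart, and every change against 0 min within a table uses the same 3 libraries at 0 min. The cells form bulk samples, in which fewer expressing cells and less RNA per cell cannot be told apart. The labels do not say whether replicates are separate cultures, and the p-values may therefore reflect technical spread alone.

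Sums of the deposited values per library, divided by 1000000, were 11.62 to 14.12 for labelled exons and 46.5 to 52.72 for total exons, but these are rescaled values and the read depth is unknown. Of 12 fibroblast markers 8 were listed, and their summed RPKM (a level per length and library size) was 715 at 16 h and 1210 at 0 min in labelled exons. In total exons the same sum was 2980 at 16 h and 5070 at 0 min. Of the epithelial and skeletal muscle markers 0 were listed. Neural markers, 2 of 5 listed, summed to 23.8 RPKM at 16 h and 7.39 RPKM at 0 min in total exons, while endothelial, blood and fat markers summed to at most 5.84 RPKM in any library of either exon table. Whether these marker shifts play a part in the changes below was not tested.

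Mitochondrial DNA encodes only a small part of the respiratory chain, and the proteins that copy, transcribe and translate it are made from nuclear genes. NRF1, GABP (also called NRF-2) and the oestrogen-related receptor ERRα bind the promoters of many of those genes, and coactivators of the PGC-1 family work through them. Within mitochondria the polymerase POLRMT starts transcription with the help of TFAM and TFB2M, and TFB1M modifies the small ribosomal RNA. Myc, a transcription factor that promotes growth, is known as an inducer of mitochondrial biogenesis.

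Ppargc1b, Tfb2m and Tfam rose in labelled and in total RNA, each by 2 h at the latest, and passed the test at every time from 2 h to 16 h in both exon tables. The other 5 genes changed by at most 0.54 on the log2 scale, in either direction, in the 4 tables and at the 10 times. In labelled exons, which stand for newly made RNA, 1 of the 8 rose at 20 min, 2 at 30 min, 3 at 1 h, 1.5 h and 2 h, 4 at 4 h, 3 at 8 h, 4 at 12 h and 3 at 16 h. Of all genes tested there, 3.35% rose at 20 min, 8.24% at 30 min, 13.7% at 1 h, 14.7% at 1.5 h, 15.6% at 2 h, 19.6% at 4 h, 21.8% at 8 h, 25% at 12 h and 22.7% at 16 h. In total exons 2 of the 8 rose at 1 h and 1.5 h, 3 at 2 h, 5 at 4 h, 6 at 8 h, 7 at 12 h and 4 at 16 h. Of all genes, 5.08% rose there at 1 h, 9.19% at 1.5 h, 11.5% at 2 h, 19.5% at 4 h, 24.6% at 8 h, 27% at 12 h and 26.3% at 16 h. Every called exon change of the 8 against 0 min was a rise. In labelled exons the median change of the 8 was 0.156 at 1 h, 0.336 at 4 h and 0.122 at 16 h (log2), where the median over all genes was 0.009, 0 and 0.015. In total exons it was 0.075 at 1 h, 0.249 at 4 h and 0.199 at 16 h, and that of all genes was -0.002, -0.019 and -0.015. A gene counts as having risen or fallen where the Benjamini-Hochberg adjusted p of the limma test was under 0.05. All log2 changes are of scaled value plus 1 against 0 min unless another time is named. They are relative to the bulk of genes in a table, because the scaling removes a shift that most genes share.

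The counts in total exons depended on the processing. At 1 h the count of 2 fell to 1 under 5 alternatives and when any 1 library other than replicate 1 at 0 min was left out. At 4 h the count of 5 fell to 3 under 3 alternatives and when replicate 2 or 3 at 0 min or replicate 1 at 4 h was left out. Tfb2m and, at 4 h, also Ppargc1b and Tfam kept their calls under all of these settings. At 16 h the count of 4 ran from 3 to 5 when 1 library was left out.

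In introns, which mark RNA not yet spliced, called changes went in both directions, unlike in exons. In labelled introns 3 of the 8 rose at 20 min, 4 at 30 min, 1 h and 2 h, 5 at 1.5 h and 4 h, 4 at 8 h, 5 at 12 h and 4 at 16 h. Of all genes, 16.5% rose at 20 min, 21.8% at 30 min, 24.2% at 1 h, 22.8% at 1.5 h, 22.5% at 2 h, 24.9% at 4 h, 26.8% at 8 h, 28% at 12 h and 25.7% at 16 h. At 1 h 2 of the 8 fell and at each later time 1 fell, where the share of all genes that fell was 25% at 1 h, 21.4% at 1.5 h, 21.7% at 2 h, 24.9% at 4 h, 26% at 8 h, 26.7% at 12 h and 22.7% at 16 h. In total introns 1 of the 8 rose at 20 min, 2 at 30 min, 5 at 1 h, 2 h and 8 h, and 4 at 1.5 h, 4 h, 12 h and 16 h. Of all genes, 7.64% rose there at 20 min, 15% at 30 min, 20.1% at 1 h, 20.1% at 1.5 h, 18.9% at 2 h, 19.8% at 4 h, 22.3% at 8 h, 22.3% at 12 h and 21.4% at 16 h. The gene that fell in total introns at 1 h, 8 h, 12 h and 16 h was Tfb1m, at times when 20.5%, 22.9%, 22.4% and 19.9% of all genes fell. A test of any change over the 10 times called 5 of the 8 in labelled exons, 7 in total exons, 7 in labelled introns and 8 in total introns. Among all genes that test called 64.5%, 70.8%, 80.1% and 72%, so the share of 5 in 8 for labelled exons lay near that of all genes. When a replicate number was left out at every time, that count was 4 in labelled exons and 6 to 7 in total exons. It was 6 in labelled introns and 6 to 7 in total introns. At 1 h the 6 calls in labelled introns, rises and falls together, became 4 to 7 when 1 library was left out.

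**Figure D1:**
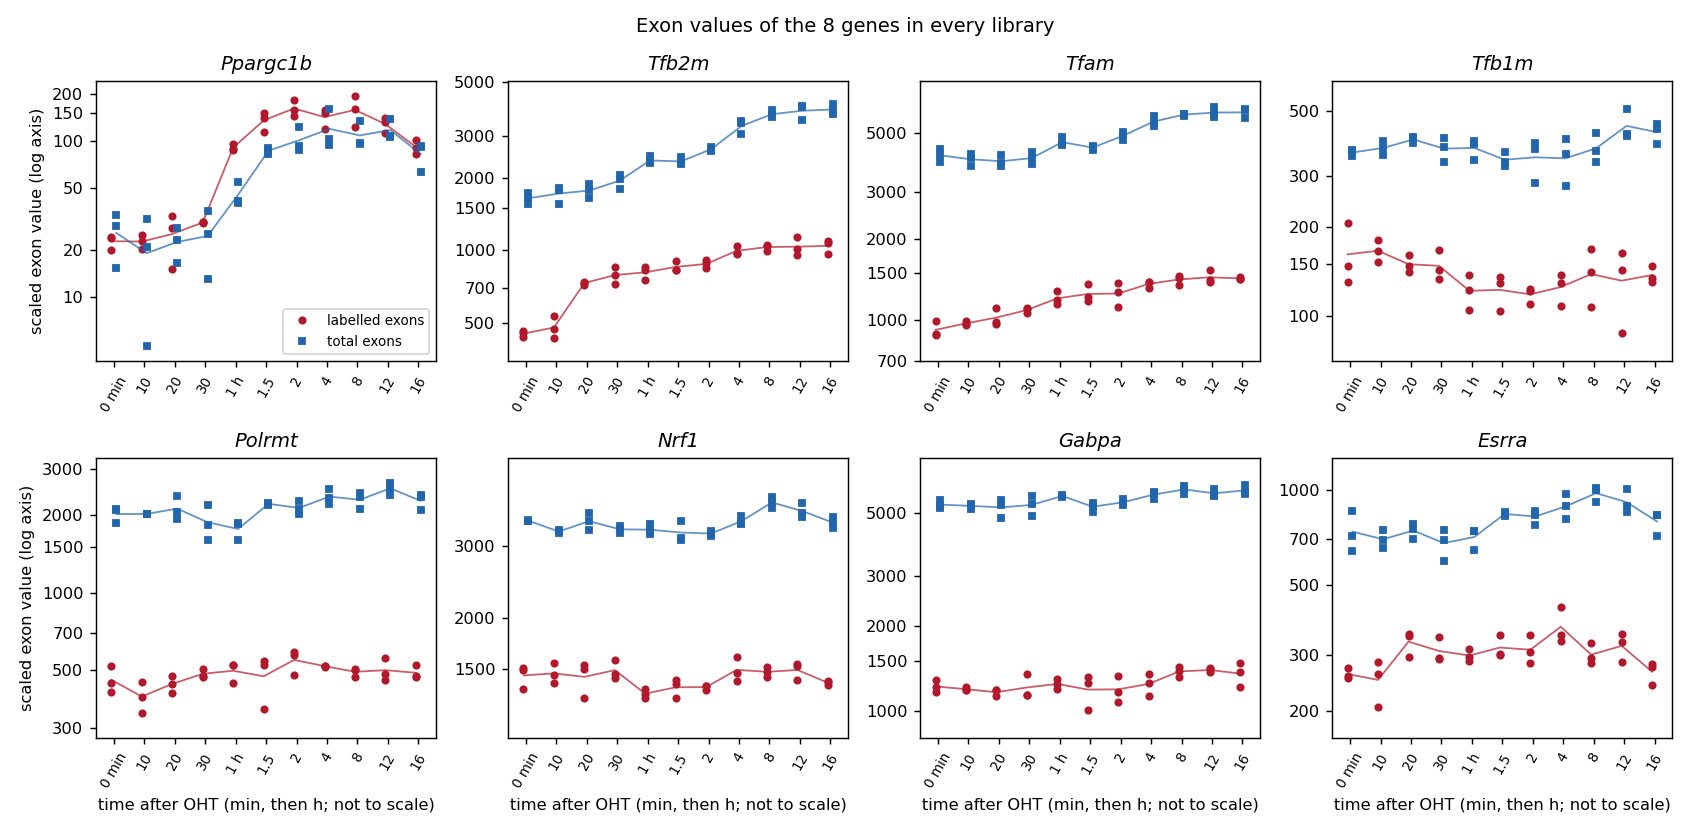
Scaled exon values of the 8 genes in each library (points) and their means (lines) against time after OHT, on log axes, for labelled RNA (circles) and total RNA (squares). Labelled Ppargc1b values lay at 82.2 to 101 at 16 h and 20.1 to 24.2 at 0 min, while Nrf1 and Gabpa values at 16 h overlapped those at 0 min in labelled exons.

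Ppargc1b encodes PGC-1β, a coactivator of ERRα and other nuclear receptors that promotes oxidative metabolism. It had the largest rise of the 8 in labelled exons from 1 h on. Its scaled labelled exon values were 24.2, 20.1 and 24.04 at 0 min, 30.01, 29.7 and 30.4 at 30 min, and 87.05, 88.9 and 94.6 at 1 h. They were 158, 143 and 181 at 2 h, 118, 150.1 and 156 at 4 h, 122, 158 and 192 at 8 h, and 90.1, 82.2 and 101 at 16 h. Every library from 1 h on lay above every library at 0 min, and the values at 2 h to 8 h lay above those at 16 h. The log2 change was 1.94 ± 0.20 at 1 h (SE, adjusted p = 2.64e-09), 2.76 ± 0.20 at 2 h (4.36e-13) and 1.96 ± 0.20 at 16 h (4.32e-10). At 30 min it was 0.39 ± 0.20 and did not pass (adjusted p = 0.23), although the groups did not overlap. Ranked by rise among 11488 genes, Ppargc1b was number 16 at 1 h, 3 at 1.5 h, 11 at 4 h and 40 at 16 h.

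The later part of the course was lower than its middle. At 16 h against 4 h the labelled exon change of Ppargc1b was -0.62 ± 0.20 (adjusted p = 0.0218). In this contrast 12.1% of all genes fell, and among the 8 it was called for Ppargc1b and Esrra. The call for Ppargc1b was lost without replicate 1 or 2 at 16 h or without replicate 2 or 3 at 4 h, with adjusted p of 0.0556 to 0.0905.

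In total exons Ppargc1b was first called at 1.5 h. Its values were 15.5, 28.5 and 33.3 at 0 min, 40.9, 54.5 and 39.9 at 1 h, 90.0, 85.9 and 82.7 at 1.5 h, 103, 160.1 and 93.7 at 4 h, and 63.3, 92.1 and 91.1 at 16 h. The groups at 1 h and 0 min did not overlap, but the change of 0.84 ± 0.40 did not pass (adjusted p = 0.223). It passed at 1.5 h, with 1.77 ± 0.40 (0.00185), and was 2.19 ± 0.40 at 4 h (5.59e-05) and 1.68 ± 0.40 at 16 h (0.000654). The change in labelled exons minus that in total exons passed at none of the 10 times, with 1.11 at 1 h (adjusted p = 0.283).

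Labelled introns of Ppargc1b were first called at 20 min. Labelled intron values were 427, 392 and 267 at 0 min, 637, 612 and 513 at 20 min, 1102, 972 and 966 at 30 min, and 1466, 1299 and 2115 at 1 h. All 3 libraries at 20 min lay above the highest at 0 min, with a log2 change of 0.72 ± 0.20 (adjusted p = 0.00514). The change was 1.51 ± 0.20 at 30 min (1.88e-07) and 2.49 ± 0.20 at 1.5 h (5.23e-12). In total introns the first call was at 30 min, with 192, 188 and 226 at 30 min and 77.9, 89.4 and 67.2 at 0 min, a change of 1.36 ± 0.20 (3.83e-06). At 30 min the intron change within labelled libraries exceeded the exon change by 1.12 ± 0.25 (adjusted p = 0.00283), a difference called in either direction for 14.7% of all genes. That call was lost with a pseudocount of 1 RPKM (0.157).

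Ppargc1b had the lowest level of the 8, 0.132 RPKM at 0 min in labelled exons, and a pseudocount of 1 RPKM shrank its labelled exon change at 1 h to 0.42, with the call kept (adjusted p = 1.65e-05). The call at 20 min in labelled introns was lost without replicate 3 at 0 min (0.0718) and with that pseudocount (0.223).

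Ppargc1a, the best studied coactivator of the same family, was in the list of upstream factors and is named after its values were seen. Its labelled exon values averaged 30.4 ± 2.68 at 16 h and 35.05 ± 11.9 at 0 min (SD, n = 3 each), a change of -0.14 ± 0.43 that did not pass (limma adjusted p = 0.818). They averaged 18.05 ± 6.35 at 1 h and 19.9 ± 8.94 at 4 h (SD, n = 3 each), changes of -0.92 ± 0.43 (limma adjusted p = 0.122) and -0.84 ± 0.43 (0.124) that did not pass. Its labelled introns fell at 4 h, to a mean of 121.5 ± 29.5 against 226.5 ± 51.4 at 0 min, by 0.90 ± 0.27 on the log2 scale (limma adjusted p = 0.00671), and their change of 0.26 ± 0.27 at 16 h did not pass (0.446).

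Esrra encodes ERRα, the orphan nuclear receptor through which PGC-1 coactivators act on oxidative genes. Its labelled exon values were 348, 427 and 333 at 4 h, and 273, 258 and 254 at 0 min. The 3 libraries at 4 h lay above those at 0 min, and the change was 0.49 ± 0.12 (adjusted p = 0.00103), kept in all 14 alternatives. At 16 h they were 282, 275 and 241, overlapping 0 min, and the change of 16 h against 4 h was -0.47 ± 0.12 (adjusted p = 0.00315). In total exons Esrra had 1016, 920.0 and 1004 at 8 h, and 861, 644 and 714 at 0 min. The groups did not overlap and the change at 8 h was 0.41 ± 0.10 (adjusted p = 0.000753). The change of 0.27 at 4 h (0.0271) held in 6 of 14 alternatives and was lost when replicate 2 or 3 at 0 min or replicate 1 or 3 at 4 h was left out. Introns of Esrra were called earlier. They were higher at 2 of 10 times in labelled RNA, first at 30 min, and at 3 in total RNA, first at 1 h. The moderated F test of any change did not pass in labelled introns (adjusted p = 0.0556) and passed in total introns (0.00834).

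Nrf1 encodes NRF1, an activator of cytochrome c and of many genes of the respiratory chain and of mitochondrial gene expression. Its labelled exon values were 1373, 1393 and 1403 at 16 h, and 1340, 1494 and 1511 at 0 min. They overlapped, with a change of -0.06 ± 0.07 (adjusted p = 0.529, 95% interval -0.195 to 0.081). In labelled introns Nrf1 had 11270, 10880 and 11370 at 1 h, and 12190, 12790 and 12490 at 0 min. All 3 values at 1 h were below those at 0 min, a change of -0.16 ± 0.06 (adjusted p = 0.0182) that was lost when replicate 2 of either time was left out. In total exons the gene had 3937, 3706 and 3837 at 8 h against 3463, 3446 and 3451 at 0 min. This rise of 0.15 ± 0.05 (0.00753) was kept in all 14 alternatives, and at 16 h the values overlapped 0 min again.

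Gabpa encodes the DNA-binding subunit of GABP, an ETS-family factor. Its labelled introns rose at 4 h, 8 h, 12 h and 16 h. Their values were 2662, 2912 and 2685 at 0 min, 3340, 2867 and 3095 at 4 h, 3481, 3253 and 3137 at 8 h, 3167, 3556 and 3475 at 12 h, and 3430, 3115 and 3352 at 16 h. The values at 4 h overlapped 0 min and those of the other 3 times did not. The change was 0.17 ± 0.07 at 4 h (adjusted p = 0.046), lost when replicate 1 or 3 of either time was left out or when the compared groups were fitted alone, and 0.26 ± 0.07 at 8 h (0.00285). The later changes were 0.30 ± 0.07 at 12 h (adjusted p = 0.00054) and 0.26 ± 0.07 at 16 h (0.00278). In total exons it had 5833, 5898 and 6247 at 16 h against 5193, 5525 and 5294 at 0 min. The groups were apart and the change was 0.17 ± 0.05 (0.00893), lost without replicate 3 at 16 h (0.0569). In labelled exons the change of 0.15 ± 0.09 at 16 h did not pass (0.168). GENCODE M1 lists 701 bases shared by Gabpa and Atp5j on opposite strands, and whether the authors counted by strand is not given in the sources used here. Atp5j total exons fell at 16 h by 0.24 ± 0.04 on the log2 scale (limma adjusted p = 2.47e-05) while those of Gabpa rose. What reads of Atp5j add to the Gabpa values was not tested.

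Tfb2m encodes the factor that opens mitochondrial promoters for POLRMT. Of the 8 genes it was the only one called in labelled exons at 20 min. Its labelled exon values were 453, 461 and 437 at 0 min, 432, 531 and 469 at 10 min, and 721, 739.6 and 734 at 20 min. They were 857, 825 and 750.4 at 1 h, 1041, 970.3 and 977 at 4 h, and 1096, 966 and 1073 at 16 h. The values at 10 min overlapped 0 min, and every library from 20 min on lay above every library of these 2 groups. The change was 0.70 ± 0.08 at 20 min (adjusted p = 8.31e-08), 0.84 ± 0.08 at 1 h (1.91e-10) and 1.21 ± 0.08 at 16 h (5.65e-15). The 16 h values exceeded those at 1 h by 0.37 ± 0.08 (adjusted p = 0.000256). In that contrast 17.6% of all genes rose, and of the 8 genes Tfb2m and Tfam were called.

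Introns of Tfb2m at 20 min overlapped those at 16 h. Labelled intron values were 1478, 1421 and 1242 at 0 min, 3149, 2842 and 3504 at 20 min, and 3390, 2847 and 2872 at 16 h. Both later groups lay well above 0 min and overlapped each other. The change was 1.20 ± 0.09 at 20 min (adjusted p = 1.43e-11) and 1.14 ± 0.09 at 16 h (1.49e-11). Total introns had 904, 805 and 872 at 20 min against 407, 509 and 422 at 0 min, without overlap, and a change of 0.95 ± 0.08 (1.84e-10).

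Total exons of Tfb2m rose over hours. They were 1738, 1562 and 1645 at 0 min, 2063, 1984 and 1809 at 30 min, 2315, 2328 and 2464 at 1 h, 3456, 3050 and 3377 at 4 h, and 3839, 3689 and 4056 at 16 h. The values at 30 min were already above 0 min but did not pass (0.24 ± 0.07, adjusted p = 0.148). The change was 0.52 ± 0.07 at 1 h (3.71e-06), 1.00 ± 0.07 at 4 h (1.51e-12) and 1.23 ± 0.07 at 16 h (5.91e-15). At 16 h against 4 h the further rise was 0.23 ± 0.07 (0.00857), where 15.8% of all genes rose, and it was lost without replicate 3 at 16 h (0.0532) or replicate 2 at 4 h (0.0683). Cnst, on the other strand and 102 bases away, had a total exon change of -0.52 ± 0.08 at 16 h (limma adjusted p = 2.38e-06). What reads of Cnst add to the Tfb2m values was not tested.

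Tfam encodes the protein that packs mitochondrial DNA and bends its promoters for transcription. Labelled exon values were 886, 990.4 and 874 at 0 min, 1181, 1280 and 1148 at 1 h, 1382, 1387 and 1318 at 4 h, and 1423, 1418 and 1446 at 16 h. No library at 1 h or later overlapped 0 min in these groups. The change was 0.39 ± 0.07 at 1 h (adjusted p = 7.66e-05), 0.57 ± 0.07 at 4 h (7.05e-08) and 0.64 ± 0.07 at 16 h (2.99e-09). At 16 h against 1 h it was a further 0.25 ± 0.07 (0.00572). The earlier call at 30 min, 0.25 ± 0.07 (0.0185), held in 7 of 14 alternatives and was lost when replicate 1 or 3 of either time was left out.

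Labelled introns of Tfam were called at 20 min, with 1157, 1271 and 1343 at 20 min and 954, 1100 and 956 at 0 min. The groups did not overlap and the change was 0.33 ± 0.08 (adjusted p = 0.00168), kept in all 14 alternatives. Total exons had 4365, 4138 and 3883 at 0 min, 5314, 5460 and 5799 at 4 h, and 5695, 6141 and 6104 at 16 h. Both later groups were above 0 min, by 0.42 ± 0.05 at 4 h (2.29e-07) and 0.54 ± 0.05 at 16 h (1.03e-09). The total exon change of 0.16 ± 0.05 at 1 h passed narrowly (0.0491) and held in 4 of 14 alternatives. It was lost without replicate 2 or 3 at 0 min and without any replicate at 1 h.

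**Figure D2:**
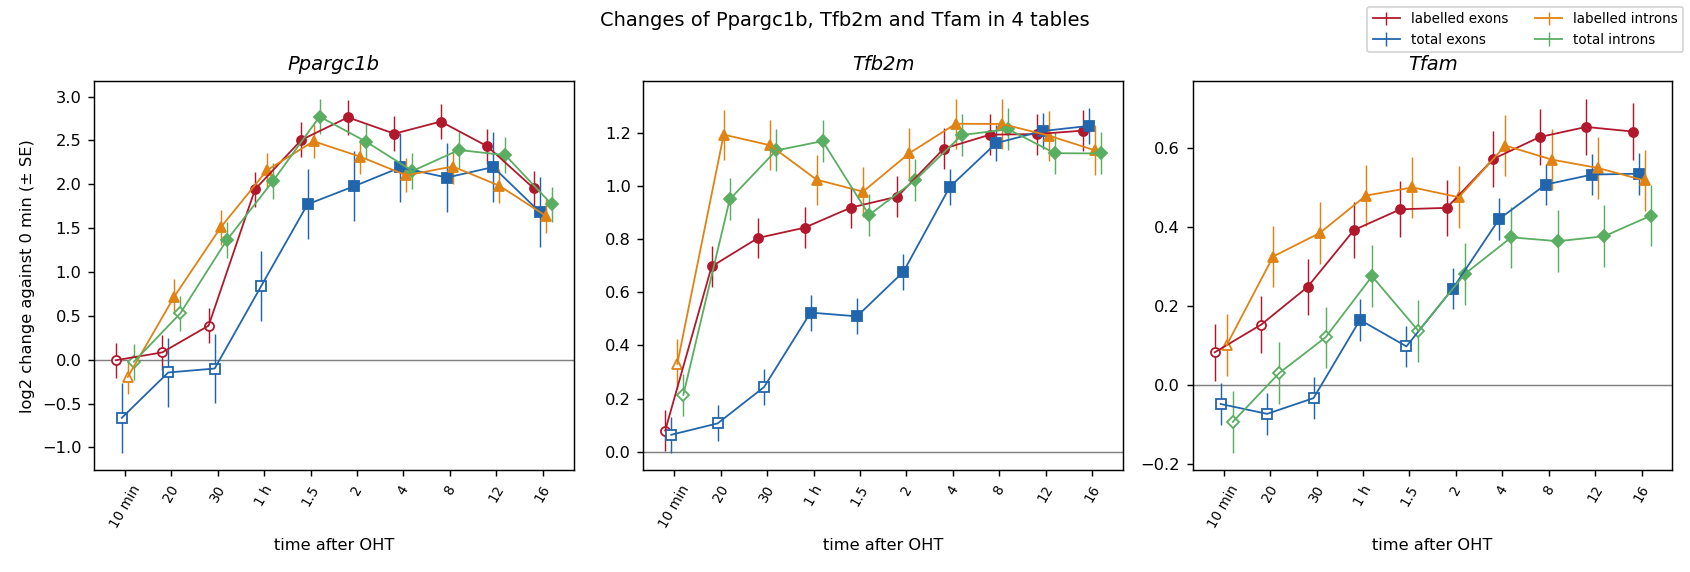
Log2 change against 0 min with its SE for Ppargc1b, Tfb2m and Tfam at the 10 later times, in labelled exons (circles), total exons (squares), labelled introns (triangles) and total introns (diamonds); filled symbols have an adjusted p under 0.05. Tfb2m introns reached 1.20 in labelled RNA at 20 min, when its total exons were at 0.11.

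Promoters of 7 of the 8 genes, with 8 start sites, were taken from the RefSeq promoter table of build GRCm38.p6. Ppargc1b was left out of this search, and the motif counts of the genes below do not cover it. The windows of Tfb2m and Tfam, whose labelled exons rose, are shown beside that of Tfb1m, whose labelled exons were called at none of the 10 times, so that their letters can be compared. Each runs from 250 bases before the start to 50 after it, 5′ to 3′ on the minus strand. Capitals mark GCATGCG, the core of the NRF1 motif, in Tfb2m, where it reads on both strands as CGCATGCG, and CCGGAAG, an ETS motif bound by GABP, in Tfam.
Tfb2m, chr1:179546227-179546526: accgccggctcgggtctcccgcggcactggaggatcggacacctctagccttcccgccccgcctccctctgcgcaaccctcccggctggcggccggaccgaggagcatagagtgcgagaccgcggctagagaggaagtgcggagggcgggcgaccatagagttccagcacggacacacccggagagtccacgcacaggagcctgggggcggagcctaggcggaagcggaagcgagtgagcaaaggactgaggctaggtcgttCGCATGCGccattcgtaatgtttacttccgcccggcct
Tfam, chr10:71237995-71238294: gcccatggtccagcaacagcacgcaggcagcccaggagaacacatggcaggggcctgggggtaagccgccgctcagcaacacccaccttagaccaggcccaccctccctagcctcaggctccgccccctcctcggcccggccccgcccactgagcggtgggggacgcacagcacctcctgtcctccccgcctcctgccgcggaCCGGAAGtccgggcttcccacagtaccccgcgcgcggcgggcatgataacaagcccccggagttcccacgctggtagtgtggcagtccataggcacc
Tfb1m, chr17:3557706-3558005: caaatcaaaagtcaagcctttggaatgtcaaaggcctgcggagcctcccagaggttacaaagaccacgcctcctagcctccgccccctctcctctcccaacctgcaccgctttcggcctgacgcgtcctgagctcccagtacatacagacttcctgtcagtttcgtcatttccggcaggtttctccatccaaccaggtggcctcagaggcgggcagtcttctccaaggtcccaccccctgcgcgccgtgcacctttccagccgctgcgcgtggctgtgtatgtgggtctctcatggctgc
Both strands were searched, and the 4 motifs did not overlap each other in these windows. The NRF1 core, which was picked after the windows had been seen, was present in Tfb2m, Polrmt, Gabpa and Esrra, and in 3.58% of the 32851 promoters of the table. The ETS motif was present in Tfam, Polrmt and Gabpa and in 8.86% of promoters. Polrmt and Gabpa thus had both motifs. Their labelled exons were called at none of the 10 times, while their labelled introns rose at 5 and 4 of them. Esrra, with the NRF1 core but no ETS motif, rose in labelled exons at 2 of the 10 times. Whether a motif goes with a rise was not tested. The E-box CACGTG, the motif that Myc and Max bind, was in 0 of the 8 windows and in 7.15% of promoters, and AAGGTCA, the core of the site that ERRα binds, was in 0 of the 8 and in 4.72%. These are matches of letters within 300 bases, and binding was not measured.

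Polrmt encodes the RNA polymerase of mitochondria. Its introns rose while its labelled exons did not pass at any time. Labelled intron values were 281, 298 and 217 at 1.5 h, and 199, 164 and 179 at 0 min. The groups did not overlap, and the change was 0.54 ± 0.13 (adjusted p = 0.000717). Labelled exons at that time were 544, 524 and 354, against 445, 413 and 520.5 at 0 min. They overlapped, and the intron change exceeded the exon change by 0.52 ± 0.10 (adjusted p = 0.00189), a difference called in either direction for 5.5% of all genes. That call was lost when the fit held the compared groups alone (0.194). Total introns had 284, 289 and 323 at 2 h against 202, 203 and 217 at 0 min, a change of 0.53 ± 0.11 (0.000345). In total exons the clearest change was at 12 h, 2546, 2388 and 2662 against 2098, 1853 and 2087 at 0 min, without overlap and by 0.33 ± 0.09 (0.0022). The total exon call at 4 h, 0.22 ± 0.09 (0.0461), held in 6 of 14 alternatives and was lost when replicate 2 or 3 at 0 min or replicate 1 or 2 at 4 h was left out.

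Tfb1m encodes the methyltransferase that modifies the small ribosomal RNA of the mitochondrial ribosome, and is related in sequence to Tfb2m. It was the one gene of the 8 whose labelled introns fell at most times, 7 of 10. Labelled intron values were 1762, 2026 and 1863 at 0 min, 1384, 1677 and 1476 at 1 h, 1494, 1523 and 1587 at 4 h, and 1555, 1597 and 1629 at 16 h. All of the later values were below the lowest at 0 min. The change was -0.32 ± 0.07 at 1 h (adjusted p = 0.000307), -0.29 ± 0.07 at 4 h (0.000769) and -0.24 ± 0.07 at 16 h (0.00505), and at 30 min it was 0.02 ± 0.07 (0.879). At 1 h and 4 h the call was kept in all 14 alternatives, and at 16 h it was lost under scaling by library sums (0.115).

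In exons of Tfb1m no fall passed the test. Labelled exon values were 123, 138 and 104 at 1 h, and 130.5, 207 and 148 at 0 min. These overlapped, and the change of -0.39 ± 0.18 did not pass (adjusted p = 0.124, 95% interval -0.76 to -0.02). Total exons had 432, 449.6 and 386 at 16 h against 363, 351 and 366 at 0 min, with no overlap and a change of 0.23 ± 0.12 that did not pass (0.112). At 12 h the rise of 0.29 ± 0.12 passed (0.0384) and was lost without any 1 replicate at 0 min or without replicate 1 at 12 h. Total introns fell at 8 h, with 523, 493 and 527 against 645, 714 and 616 at 0 min, by 0.35 ± 0.09 on the log2 scale (0.00169), kept in all 14 alternatives. At 16 h against 4 h total exons rose by 0.31 ± 0.12 (0.0459) although the groups overlapped, and that call was lost without replicate 1 or 2 at 16 h or replicate 1 or 3 at 4 h. On the other strand Cldn20, not analysed here, shares 660 bases with Tfb1m, and Tiam2 shares 135 bases with it. Tiam2 labelled introns changed by -0.11 ± 0.09 at 1 h (limma adjusted p = 0.328) and -0.40 ± 0.09 at 4 h (0.000621). What reads of Tiam2 or Cldn20 add to the Tfb1m values was not tested.

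**Figure D3:**
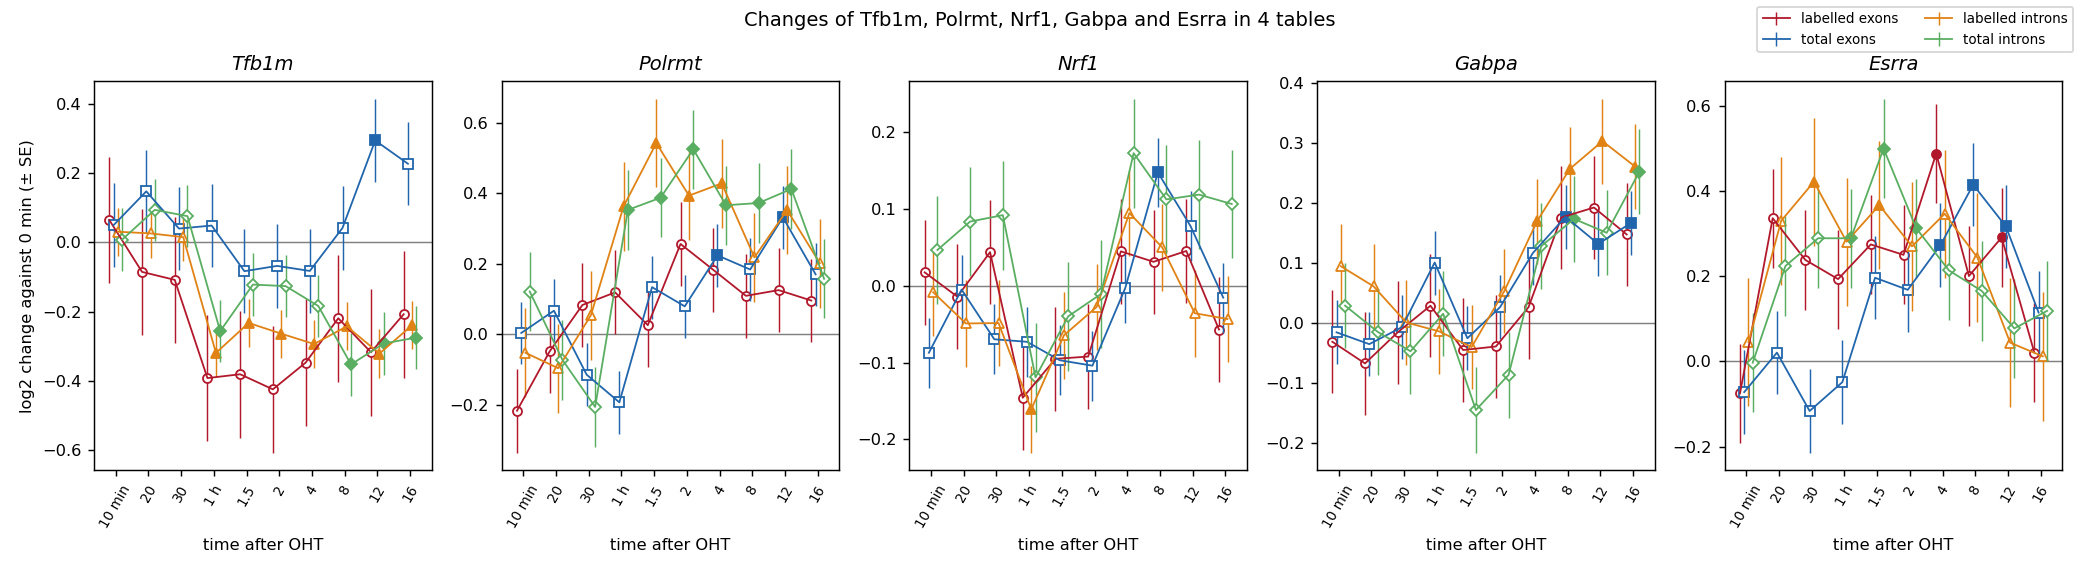
Log2 change against 0 min with its SE for Tfb1m, Polrmt, Nrf1, Gabpa and Esrra, drawn as for the genes that rose, with a scale of its own in each panel. Labelled introns of Tfb1m were at -0.32 at 1 h and those of Gabpa reached 0.30 at 12 h.

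Labelled and total RNA were compared directly in 1 model over all 66 libraries. The model treats the libraries as separate samples. The labels do not say whether labelled and total libraries of the same time and replicate number came from the same cells. The labelled exon change of Tfb2m exceeded its total exon change by 0.59 ± 0.10 at 20 min (adjusted p = 0.000348) and by 0.56 ± 0.10 at 30 min (0.000456). Both held in all 20 alternatives, and differences in either direction were called for 0.619% of all genes at 20 min and 1.96% at 30 min. At 1.5 h, when 0.855% of genes were called, Tfb2m differed by 0.41 ± 0.10 (0.0289) and Tfam by 0.35 ± 0.09 (0.0339). The first of these held in 9 of 20 alternatives and the second in 8 of 20. Both were lost on unscaled deposited values, with RPKM plus 0.1 or plus 1, and with the compared groups alone. Among the libraries, the call for Tfb2m was lost without replicate 1 or 3 at 0 min of either RNA, replicate 3 at 1.5 h of labelled RNA, or replicate 1 or 3 at 1.5 h of total RNA. That for Tfam was lost without replicate 1 or 3 at 0 min and replicate 3 at 1.5 h of labelled RNA, replicate 1 or 2 at 0 min of total RNA, or any replicate at 1.5 h of total RNA. Of the 8 genes 0 were called at 1 h, 4 h and 16 h, times at which 1.41%, 0.0611% and 0.332% of all genes were called. At an unadjusted p under 0.05 the count among the 8 was 4 at 1 h and 0 at 4 h and 16 h, beside 11.8%, 6.49% and 8.28% of all genes. The difference for Ppargc1b at 1 h was 1.11 ± 0.45 (limma adjusted p = 0.283).

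Within labelled libraries the intron change of Tfb2m also exceeded its exon change. The difference was 0.50 ± 0.09 at 20 min (adjusted p = 0.00043), where 9.29% of all genes were called in either direction, and 0.35 ± 0.09 at 30 min (0.0074). The first was lost when the fit held the compared groups alone (0.08) and with a pseudocount of 1 RPKM (0.0662), and the second also without replicate 3 at 0 min (0.0573).

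Levels between genes were compared per length, as RPKM in exons. In labelled RNA at 0 min the order was Gabpa with 5.18 ± 0.227, Tfam with 4.97 ± 0.180, Tfb2m with 3.89 ± 0.0681, Nrf1 with 3.61 ± 0.302, Polrmt with 2.65 ± 0.433, Tfb1m with 2.61 ± 0.563, Esrra with 1.33 ± 0.0624 and Ppargc1b with 0.132 ± 0.0178 RPKM (SD, n = 3 each). Gabpa overlapped Tfam, Tfb2m overlapped Nrf1, and Polrmt overlapped Tfb1m, while the other neighbours in this order did not overlap. At 16 h Tfb2m stood first in labelled RNA, with 8.89 ± 0.755 RPKM against 3.89 ± 0.0681 at 0 min. In total RNA at 16 h Tfb2m had 25.4 ± 1.60 RPKM against 10.8 ± 0.844 at 0 min, and Tfam had 24.8 ± 0.907 against 17.0 ± 1.23. Ppargc1b was lowest at both times in both RNAs, with 0.362 ± 0.0703 RPKM at 16 h and 0.112 ± 0.0396 at 0 min in total RNA. In total exons at 0 min 5.85% of all genes lay below it, and of the neighbours in the order of that table Gabpa and Tfam alone overlapped.

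**Figure D4:**
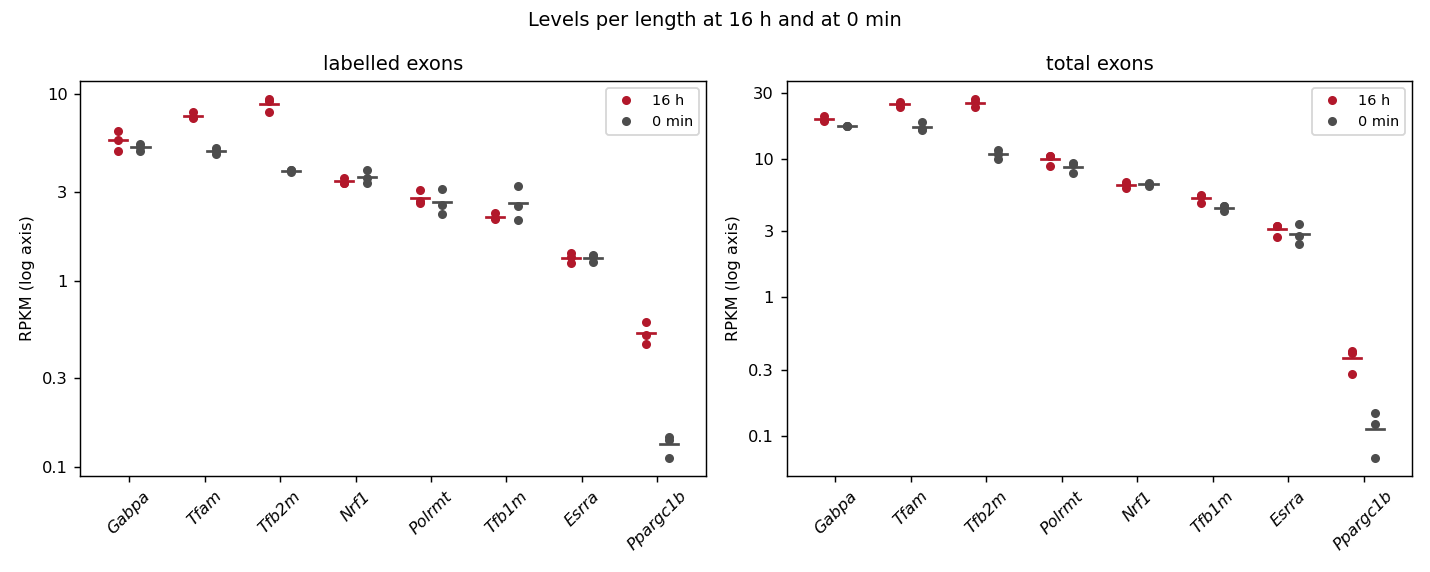
RPKM of the 8 genes per library at 16 h (left of each pair) and at 0 min (right), with bars at the means, for labelled and total exons on log axes and in the order of the 0 min means. Tfb2m stands at 25.4 RPKM at 16 h and 10.8 at 0 min in total RNA, and Ppargc1b is lowest in both panels.

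Genes whose time course in labelled exons was most like that of a called member were sought by Pearson's r over the 11 time means, among 1312 or 1313 other genes with an SD of at least 0.3 and a mean value of at least 50. These coefficients describe courses that share all 33 libraries and a common trend. They are the highest picked from many and do not test a link between genes. Gabpa counted as called by the moderated F test of any change alone (adjusted p = 0.0455), and its labelled exons passed at none of the 10 times. For Ppargc1b the 3 nearest were Nav3 with r = 0.993, Adarb1 with 0.990 and Arhgap39 with 0.986. For Tfb2m they were St6galnac4 with 0.991, Glul with 0.990 and Noa1 with 0.989. For Tfam they were Reep6 with 0.992, Rbm28 with 0.990 and Podxl with 0.990. The nearest for Gabpa was Gtf2h3 with 0.960, followed by Bbs5 and Atp8a1, and for Esrra no course came closer than that of Nutm1 with 0.830, followed by Kcnk10 and Grin3b.

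Other genes with parts in mitochondrial biogenesis or function, upstream factors and coactivators among them, were followed as 6 lists. Of the genes that maintain or copy mitochondrial DNA, 10 of 16 measured changed in labelled exons at 16 h, all of them higher. Those of mitochondrial RNA synthesis and processing rose for 14 of 24 and fell for 1, those of mitoribosome assembly rose for 11 of 19 and fell for 1, and of the translation factors 10 of 17 changed, all higher. The list medians were 0.27, 0.28, 0.29 and 0.31 (log2), and the median of all 11488 genes was 0.015, with 22.7% higher and 21.6% lower. Of the cytochrome c and cytochrome oxidase genes 4 of 23 changed, all higher, with a median of 0.13. Upstream factors and coactivators other than the 8 rose for 3 of 17 and fell for 3, with a median of -0.05. In total exons at 16 h the cytochrome list had 3 that rose and 4 that fell, and mitoribosome assembly 15 that rose and 1 that fell, where 26.3% of all genes rose and 29.6% fell. At 4 h, the other time from which genes are named, 19.6% of all genes rose and 18.8% fell in labelled exons. Genes encoded by mitochondrial DNA are not in these tables and were not analysed here.

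Noa1, a GTPase of mitoribosome assembly, led its list, with a labelled exon mean of 2847 at 16 h and 1006 at 0 min and a change of 1.51 ± 0.07 (1.36 ± 0.07 at 4 h). Next in that list came Rbfa, a ribosome-binding factor, at 4 h with 0.59 ± 0.12, and Mtg1, another GTPase, at 16 h with 0.83 ± 0.18. Mettl15, a methyltransferase, fell by 0.48 ± 0.19 at 4 h and by 0.82 ± 0.19 at 16 h. Top1mt, the topoisomerase of mitochondria, averaged 770 at 16 h and 251 at 0 min, a change of 1.62 ± 0.11 (1.24 ± 0.11 at 4 h). Polg2, the accessory subunit of the mitochondrial DNA polymerase, rose by 0.87 ± 0.11 at 16 h and 0.78 ± 0.11 at 4 h. All changes named here and in the next paragraph passed the test over all genes, the narrowest being that of Mettl15 at 4 h (limma adjusted p = 0.0485).

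Among genes of mitochondrial RNA, Fastkd3 rose by 0.77 ± 0.11 and Elac2, an endonuclease that trims tRNA ends, by 0.75 ± 0.07 at 4 h. Mterf1a, related to a transcription termination factor, and Grsf1, an RNA-binding protein of mitochondrial granules, rose by 0.84 ± 0.18 and 0.75 ± 0.06 at 16 h. Mterf2 fell by 0.36 ± 0.13 at 4 h, and Rexo2, an exonuclease for short RNA, by 0.28 ± 0.07 at 16 h. Of the translation factors, Gtpbp3 rose by 0.60 ± 0.08 at 4 h and Trmu by 0.58 ± 0.15 at 4 h and 0.69 ± 0.15 at 16 h, both of which modify tRNA. Tufm, the elongation factor, rose by 0.79 ± 0.07 at 16 h, and Gfm2, which acts in ribosome recycling, fell by 0.22 ± 0.08 at 4 h. Cox10, a heme A synthesis enzyme, rose by 0.48 ± 0.08 at 4 h and at 16 h, and Cox20, an assembly factor, by 0.45 ± 0.13 at 4 h and 0.42 ± 0.13 at 16 h. Upstream, Prkaa2, a catalytic subunit of AMPK, rose by 0.50 ± 0.14 at 4 h and 0.72 ± 0.14 at 16 h, while the other catalytic subunit, Prkaa1, fell by 0.19 ± 0.07 at 4 h. Nfe2l2 rose by 0.41 ± 0.09 at 4 h. Of the partner subunits of GABPA, Gabpb2 rose by 0.43 ± 0.06 and Gabpb1 fell by 0.28 ± 0.09 at 16 h.

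**Figure D5:**
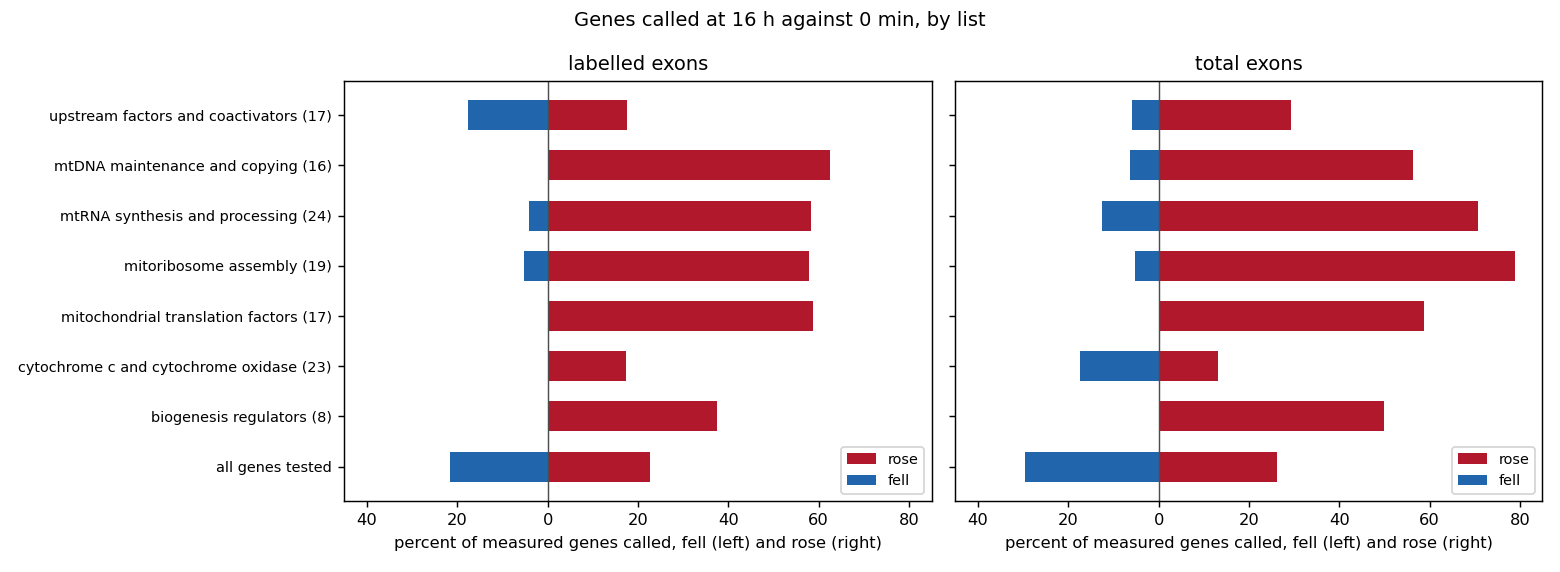
Percent of the measured genes of each list (number measured in brackets) that rose (right) or fell (left) at 16 h against 0 min, in labelled and total exons, with all genes tested in the lowest row. The 4 lists of mitochondrial DNA, RNA, ribosome assembly and translation have 10, 14, 11 and 10 genes that rose in labelled exons, and the cytochrome list has 4 of 23.

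By the GENCODE M1 annotation of mm9, the longest of the 8 genes are Nrf1 at chr6:29997988-30103458 (plus strand, 105471 bases) and Ppargc1b on chromosome 18 (minus strand, 102296 bases). Tfb1m lies at chr17:3519263-3557713 (minus strand, 38451 bases), Gabpa at chr16:84835170-84864024 (plus strand, 28855 bases) and Tfb2m at chr1:181458186-181476398 (minus strand, 18213 bases). Tfam lies at chr10:70688212-70701028 (minus strand, 12817 bases), Polrmt at chr10:79198868-79209326 (minus strand, 10459 bases) and Esrra at chr19:6985467-6996303 (minus strand, 10837 bases). Esrra also shares 73 bases with Trmt112 on the other strand, and Polrmt lies 14 bases from Hcn2. Trmt112 changed by 0.11 ± 0.10 in labelled exons at 4 h (limma adjusted p = 0.423), when Esrra rose. What reads of Trmt112 add to the Esrra values, or those of Hcn2 to the Polrmt values, was not tested.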

How the data were processed

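RNA labelled with 4sU and total RNA were sequenced at 11 times, 66 libraries in all. Per the submitters' processing notes, TopHat2 2.0.8 and mouse build mm9 were used; how reads were assigned to exons and introns, and by which strand, is not given in the sources used here. As 4 tables, the authors deposited whole numbers that they call counts. These are treated as a score, because the deposited values behave as rescaled numbers. For the genes compared, a gene's RPKM is the same multiple of them in every library, to within 0.982%. Between 4255 and 7588 of the 11513 genes were compared per table. The authors deposited RPKM in 4 further tables. Read depth is therefore unknown and no count model was used.

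Values were scaled by trimmed means of M values (30% and 5% trimmed), and log2(value + 1) was taken. Genes with 10 or more in 3 or more libraries were kept. This scaling removes a gain or loss of RNA shared by most genes, and no measure of RNA per cell was used. limma 3.58.1 in R 4.3.3 gave 1 mean per time over the 33 libraries of a table, two-sided moderated tests and Benjamini-Hochberg adjusted p-values over all genes of a contrast (11474 to 11506 genes). Labelled and total changes were compared in 1 model, and intron against exon changes within labelled libraries in a fit chosen after the data were seen. The scripts were tested on simulated data. The added 1 makes fold changes of genes with low values come out too small. Promoters were taken from RefSeq.

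The genes, lists and tests were chosen with earlier results of these data known. Named list genes are those with the largest 2 rises and the largest fall among called genes of a list with a mean of 50 or more. Replicate numbers were checked for pairing by correlating deviations from the group means: every pair exceeded 0.1 for total exons at 4 h and 0 min (0.178, 0.186 and 0.123) and at 16 h and 4 h (0.151, 0.187 and 0.149), and not in the other comparisons checked. Alternatives were other scalings, pseudocounts and filters, RPKM values, fits on the compared groups, a replicate block and leaving out each replicate.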

Additional observations from a re-analysis of the deposited data

Results flagged for a closer look

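For Tfb2m, which encodes the transcription factor that works with POLRMT, the change in labelled exons and the change in total exons differed by the test of the difference itself. The labelled change exceeded the total change by 0.5917 at 20 min (limma adjusted p = 0.000348) and by 0.5622 at 30 min (0.000456) on the log2 scale, and both were called under each of 20 alternatives. At 1.5 h the difference was 0.4101 for Tfb2m (0.0289), called under 9 of 20 alternatives, and 0.3476 for Tfam (0.0339), called under 8 of 20. At 16 h the same difference was -0.02 for Tfb2m (0.992) and 0.11 for Tfam (0.829), and neither passed.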

How the results depend on the processing

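Of 8304 alternatives over 568 results on single genes, 8020 kept the side of the threshold, 184 lost the call and 100 gained one. In 416 of the 8020 the sign differed for a change that passed in neither setting, and 0 called values changed sign. In total exons at 1 h the count of 2 became 1 on unscaled deposited values, with the compared groups alone, with RPKM plus 0.1 or plus 1, and with scaling by library sums, and was 1 to 2 when a replicate was left out. At 4 h the count of 5 became 3 without further scaling and with RPKM plus 0.1 or plus 1, and was 3 to 5 when a replicate was left out. At 16 h against 4 h the count of 2 became 1 with the compared groups alone, and was 1 to 2 when a replicate was left out. At 16 h against 0 min the count of 4 was 3 to 5 when a replicate was left out. In labelled introns at 1 h the count of 6 was then 4 to 7. The cause was not tested. With the replicate number as a block, labelled exons gave 3 calls at 1 h, 4 at 4 h and 3 at 16 h, and total exons 2, 5 and 4, the same counts as without it. The block moved none of the 20 counts by over 1.5 times. Depth is unknown, and Ppargc1b, at 0.132 RPKM at 0 min in labelled exons, had a log2 change at 1 h of 1.94 with the scaled values and 0.42 with RPKM plus 1. Labels name no separate cultures, so the spread may be technical.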
